A study of Mus musculus with 6 samples.

Results

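Synaptic vesicle and SNARE genes were followed in the spinal cord of mice that carry human SOD1 transgenes. The genes listed were Syt1, Syt4, Vamp1, Vamp2, Snap25, Stx1a, Syp, Syn1 and Syn2. A probe set (the group of oligonucleotides on the array that measures 1 transcript) was taken for a gene when the platform annotation named that gene and no other. Of the 9 genes, 8 had such a probe set, out of 8251 genes with one among the 12422 probe sets of the array. Vamp1 and Vamp2 had a second probe set each, which made 10 probe sets, and the brighter one stands for its gene. Syn1 has no value here. Of the 8 genes, 6 passed the filter for testing, which asked for at least 1 array above the pooled median intensity of 79.7. Stx1a and Syt4 stayed under it on all 6 arrays.

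A nerve terminal stores neurotransmitter in synaptic vesicles and releases it when calcium enters. VAMP proteins in the vesicle membrane (v-SNAREs) zip together with syntaxin and SNAP-25 in the plasma membrane (t-SNAREs) and pull the membranes into fusion, while synaptotagmin on the vesicle senses calcium and triggers the step. Synapsins tether vesicles in a reserve pool, and synaptophysin is an abundant vesicle membrane protein that binds VAMP2. In the spinal cord these messenger RNAs are made in the cell bodies of motor neurons and interneurons, and the proteins travel along the axons to synapses in the cord and to the neuromuscular junction.

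The arrays covered 3 genotypes at 75 and 110 days of age, 1 array for each combination. The first carried a human SOD1 transgene with the ALS-linked G93A mutation (strain label B6SJL-G93A-SOD1 at 75 days and B6SJL-G93A-SOD1H at 110 days). By the series' description these mice were presymptomatic at 75 days and had tremor and partial paralysis at 110 days. The second carried the wild-type human transgene (WT-SOD1, strain label B6SJL-WT-SOD1 at 75 days, with no strain label at 110 days) and had no disease at either age. The third was nontransgenic (B6SJL). Each array held RNA pooled from 4 spinal cords and was hybridised once, so no group has a replicate and the spread between animals is not measured. Neither the sex of the mice nor the promoter of the transgene is given in the sources used here.

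The WT-SOD1 and nontransgenic arrays of an age served together as its 2 disease-free arrays, so the p-values of the G93A-SOD1 and age comparisons rest on how far the arrays of these 2 genotypes lie apart. Those of WT-SOD1 minus nontransgenic come from a model of genotype plus age on the disease-free arrays, with 1 residual degree of freedom and a spread pooled over all probe sets. Median intensities lay between 77.7 and 80.9 on the 6 arrays. The mean of 9 bacterial spike-in probe sets was 645 at 75 days and 746 at 110 days in G93A-SOD1 hybridisations, against 696 and 1589.6 in those of WT-SOD1 and 1198 and 850.3 in the nontransgenic ones. The nontransgenic array at 75 days and the WT-SOD1 array at 110 days thus stood above the other 4. The WT-SOD1 array at 75 days also stood apart in pituitary hormone genes, whose summed intensity was 11419 there, against 706 to 827 on the other 5 arrays. Oligodendrocyte markers summed to 10779 at 75 days and 10717 at 110 days on the G93A-SOD1 arrays, against 11220.5 to 12426 on the disease-free ones. Of 8 tested, 0 had an adjusted p under 0.05 by limma at either age. Both G93A-SOD1 arrays lay below all disease-free arrays in 2 of the 8, as in 15.6% of all tested probe sets. At each age 5 differences were below 0 and 3 above, Sox10 and Cldn11 among the latter. General neuron markers summed to 13813 and 11853 on the G93A-SOD1 arrays, against 14252 to 17389. The motor neuron marker Isl1, a transcription factor of these cells, was below the intensity floor of 31 on all 6 arrays, so motor neurons were not resolved by that gene.

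The vesicle calcium sensor Syt1 was lower in G93A-SOD1 cords at both ages. Syt1 (probe set 93005_at) had an intensity of 67.3 at 75 days and 73.2 at 110 days in G93A-SOD1 cords, against 156 and 138 in WT-SOD1 cords and 232 and 225 in nontransgenic cords. Both G93A-SOD1 arrays lay below all 4 disease-free arrays, and the brightest array exceeded the dimmest by 3.45-fold. The G93A-SOD1 level was 34.7% of the disease-free mean at 75 days and 40.4% at 110 days. Over both ages Syt1 fell by 1.38 on the log2 scale (SE 0.23, 95% interval -1.92 to -0.84, adjusted p = 0.0423 by limma with Benjamini-Hochberg adjustment), which is 2.61-fold lower. In that comparison 1.2% of the 6737 tested probe sets passed, 0.237% with a lower level, and the other 5 tested genes did not. Both G93A-SOD1 values of Syt1 lay under the filter level, so it entered the test only through the disease-free arrays, where it was higher. Its call therefore depends on the filter, and with no filter the adjusted p was 0.432. The 3′ to 5′ ratio of Gapdh probe sets, a sign of RNA quality, was 1.49 at 75 days and 1.30 at 110 days in G93A-SOD1 cords, against 1.27 and 1.14 with WT-SOD1 and 1.08 and 1.23 without a transgene. It was thus above the disease-free range on both G93A-SOD1 arrays, the same split as Syt1, whereas the actin ratio (1.998 and 1.904 in G93A-SOD1 cords, against 1.69 to 2.39 in disease-free cords) overlapped. The part of RNA quality in the differences of Syt1, Vamp1, Snap25 and Syn2 was not tested.

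At single ages the Syt1 difference was of like size but did not pass. It was -1.50 ± 0.32 (SE) at 75 days, with a 95% interval of -2.26 to -0.74 and an adjusted p of 0.440 by limma. At 110 days it was -1.26 ± 0.32, with an interval of -2.02 to -0.50 and an adjusted p of 0.170. The difference between the ages was 0.23 ± 0.46 (adjusted p = 0.998). Leaving out 1 disease-free array changed these calls: at 75 days Syt1 then passed in 4 of 4 fits (-1.79 to -1.21, adjusted p of 0.000108 to 0.0324), and at 110 days in 3 of 4 (-1.62 to -0.91), with 0.116 without the nontransgenic array at 110 days. Calls over all probe sets grew in the same fits, to between 13 and 116 at 75 days (0 with all arrays) and between 148 and 591 at 110 days (102 with all arrays), most at 110 days without the WT-SOD1 array of that age. The call over both ages was lost without either G93A-SOD1 array, which left only the difference at the other age. Adjusted p by limma was 0.963 against WT-SOD1 arrays alone (difference -1.06) and 0.0369 against nontransgenic arrays alone (difference -1.70). Without the 2 arrays that had the higher spike-in levels the difference was -1.42 (adjusted p = 0.113), and with a higher floor or a common array median the call was also lost while the difference stayed between -1.38 and -1.37.

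The disease-free arrays themselves were split by genotype in Syt1. Both WT-SOD1 arrays (156 and 138) lay below both nontransgenic arrays (232 and 225), a log2 difference of -0.64 ± 0.19 (SE) with an adjusted p of 0.751 by limma. It was the 2nd lowest difference among the tested probe sets in that comparison, where 0.104% of probe sets passed. The order of the genotypes in Syt1 was thus the same at both ages, with G93A-SOD1 lowest, WT-SOD1 next and nontransgenic highest.

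Syt4, an inducible synaptotagmin found on dense-core vesicles, was dim throughout. Its intensity was 39.0 at 75 days and 42.4 at 110 days in G93A-SOD1 cords, against 40.8 and 61.7 in WT-SOD1 cords and 46.0 and 66.4 in nontransgenic cords. The disease-free arrays were higher at 110 days than at 75 days, and the groups overlapped. When every probe set was tested without the filter, the G93A-SOD1 difference at 110 days was -0.59 ± 0.11 (SE, adjusted p = 0.473 by limma) and at 75 days -0.15 ± 0.11 (adjusted p = 0.891).

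**Figure D1:**
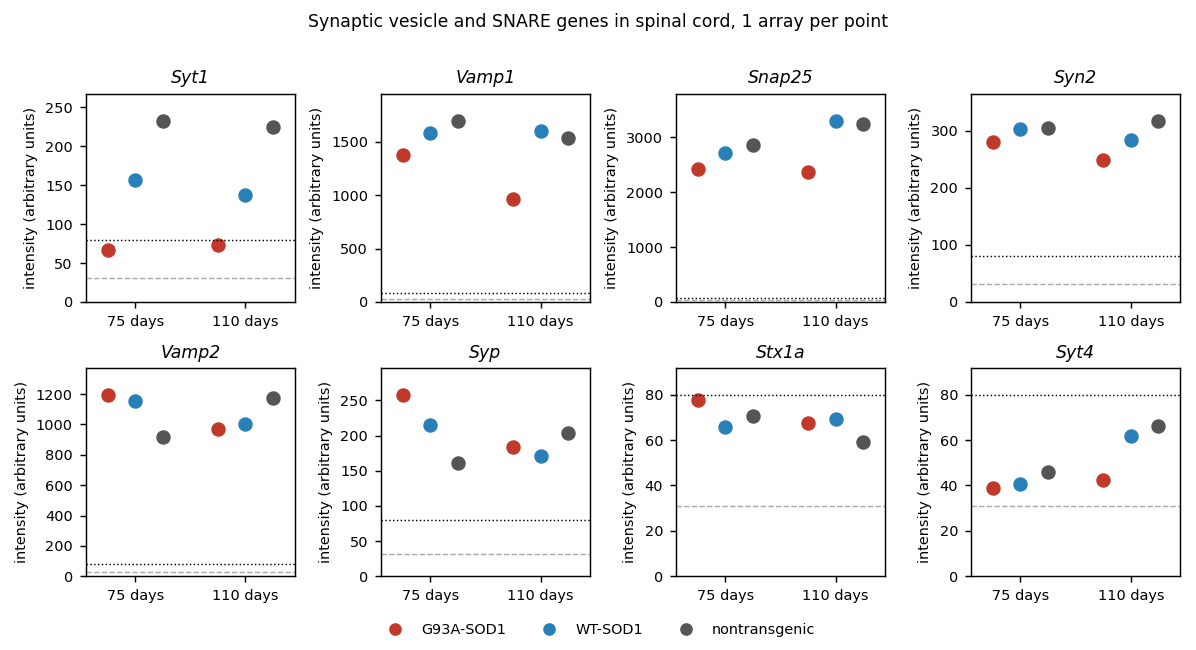
Intensity (linear axis from 0, arbitrary units) of each measured gene on the 6 arrays, by age, with G93A-SOD1 left of WT-SOD1 and nontransgenic within an age. Each point is 1 array of 4 pooled cords, the dotted line is the filter level of 79.7 and the dashed line the floor of 31. Syt1 shows both G93A-SOD1 points (67.3 and 73.2) below all others (138 to 232), while Vamp2 and Syp overlap.

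Vamp1, the v-SNARE that prevails in spinal cord and motor neurons, was lower on both G93A-SOD1 arrays, with the wider gap at 110 days. Vamp1 (93652_i_at) had an intensity of 1380.0 at 75 days and 966 at 110 days in G93A-SOD1 cords, against 1584 and 1605 in WT-SOD1 cords and 1693 and 1532 in nontransgenic cords. Both G93A-SOD1 arrays lay below all 4 disease-free arrays, which spanned only 1532 to 1693. The G93A-SOD1 level was 84.2% of the disease-free mean at 75 days and 61.6% at 110 days. The log2 difference at 110 days was -0.70 ± 0.13 (SE, 95% interval -1.02 to -0.38), and its adjusted p of 0.0674 by limma did not pass. At 75 days it was -0.25 ± 0.13 (adjusted p = 0.585), and over both ages -0.47 ± 0.10 (adjusted p = 0.0820). The test of the difference between the ages gave -0.45 ± 0.19 (adjusted p = 0.793), and G93A-SOD1 at 110 days minus 75 days gave -0.51 ± 0.16 (adjusted p = 0.314).

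The second Vamp1 probe set differed from the first in the older cords. This dim set (93653_r_at) had an intensity of 61.3 at 75 days and 62.5 at 110 days in G93A-SOD1 cords, against 83.1 and 67.8 in WT-SOD1 cords and 79.1 and 75.0 in nontransgenic cords. This dim set was also lowest on the G93A-SOD1 arrays, but its log2 difference was -0.40 at 75 days and -0.19 at 110 days (adjusted p = 0.495 and 0.801 by limma). It exceeded the filter level only on the WT-SOD1 array at 75 days (83.1). The dim set thus entered the test through the disease-free group, where it was higher, and its place there depends on the filter. For the age comparisons its sign was opposite to that of the brighter set, with 0.21 for the change of the difference between the ages and 0.03 for G93A-SOD1 at 110 minus 75 days (adjusted p = 0.998 and 0.979). By the array's naming, the endings _i_at and _r_at mark probe sets with fewer unique probes than the design asks for or with probes picked under relaxed rules. Vamp1 at 110 days did not pass with the main settings, and it passed in 4 of 12 alternatives. Among those that passed, adjusted p by limma was 0.0471 with an offset in place of the floor and 0.0295 with a term for the spike-in levels. With single disease-free arrays left out, the difference at 110 days lay between -0.73 and -0.67. Over both ages the ends with single arrays left out were -0.70 and -0.25. They are the differences at 110 and 75 days, which is what remains without 1 of the G93A-SOD1 arrays.

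Vamp2, the main v-SNARE of forebrain synapses, showed no such order. Vamp2 (98926_at) had an intensity of 1191 at 75 days and 971 at 110 days in G93A-SOD1 cords, against 1156 and 1000.1 in WT-SOD1 cords and 915 and 1176 in nontransgenic cords. The groups overlapped, and the dimmest array was the nontransgenic one at 75 days. The log2 difference was 0.21 at 75 days (95% interval -0.23 to 0.65, adjusted p = 0.732 by limma) and -0.16 at 110 days (interval -0.60 to 0.28, adjusted p = 0.941). A dimmer second probe set (98925_at) had the opposite sign at 110 days, with 0.16 (adjusted p = 0.927). The difference between Vamp1 and Vamp2 was not tested.

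Snap25, the t-SNARE that contributes both of its SNARE helices to the fusion complex, was lower on both G93A-SOD1 arrays. Snap25 (100047_at) had an intensity of 2424 at 75 days and 2371 at 110 days in G93A-SOD1 cords, against 2712 and 3297 in WT-SOD1 cords and 2864 and 3253 in nontransgenic cords. The disease-free arrays were brighter at 110 days than at 75 days (log2 difference 0.23 ± 0.11, adjusted p = 0.998 by limma), whereas the G93A-SOD1 arrays of the 2 ages lay close together (-0.03). The G93A-SOD1 difference was -0.20 ± 0.13 at 75 days (adjusted p = 0.642 by limma) and -0.47 ± 0.13 at 110 days (95% interval -0.78 to -0.16, adjusted p = 0.224). Over both ages it was -0.33 ± 0.09 (adjusted p = 0.170 by limma). Without either G93A-SOD1 array only the difference at the other age (-0.47 or -0.20) remained. The difference between the ages was -0.26 (adjusted p = 0.991).

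Stx1a, the neuronal syntaxin that pairs with SNAP-25, was near the lower end of the scale. Its intensity was 77.5 at 75 days and 67.4 at 110 days in G93A-SOD1 cords, against 65.7 and 69.4 in WT-SOD1 cords and 70.6 and 59.1 in nontransgenic cords. The groups overlapped. Tested without the filter, its log2 difference was 0.19 ± 0.14 at 75 days and 0.07 ± 0.14 at 110 days (adjusted p = 0.891 and 1 by limma).

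Syn2, a synapsin of the vesicle surface, was modestly lower on both G93A-SOD1 arrays. Syn2 (160954_at) had an intensity of 280 at 75 days and 248 at 110 days in G93A-SOD1 cords, against 304 and 283 in WT-SOD1 cords and 304 and 317 in nontransgenic cords. All 4 disease-free arrays were brighter than both G93A-SOD1 arrays, by a margin that at its narrowest was 280 against 283. The log2 difference was -0.12 at 75 days (adjusted p = 0.815 by limma) and -0.27 ± 0.14 at 110 days (adjusted p = 0.617).

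Syp, the classic marker of synaptic vesicles, was brightest in G93A-SOD1 cords at 75 days and within the disease-free range at 110 days. Syp (160181_at) had an intensity of 257 at 75 days and 184 at 110 days in G93A-SOD1 cords, against 215 and 170.3 in WT-SOD1 cords and 160.4 and 203 in nontransgenic cords. The log2 difference was 0.47 ± 0.21 at 75 days (95% interval -0.02 to 0.95, adjusted p = 0.519 by limma) and -0.02 at 110 days (interval -0.50 to 0.47). Its array order resembled that of the brighter Vamp2 set, in that the G93A-SOD1 array at 75 days was the brightest for both and the nontransgenic array at 75 days the dimmest. By the dimmer Vamp2 set (98925_at) the WT-SOD1 array was brightest at 75 days (138) and dimmest at 110 days (99.5).

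**Figure D2:**
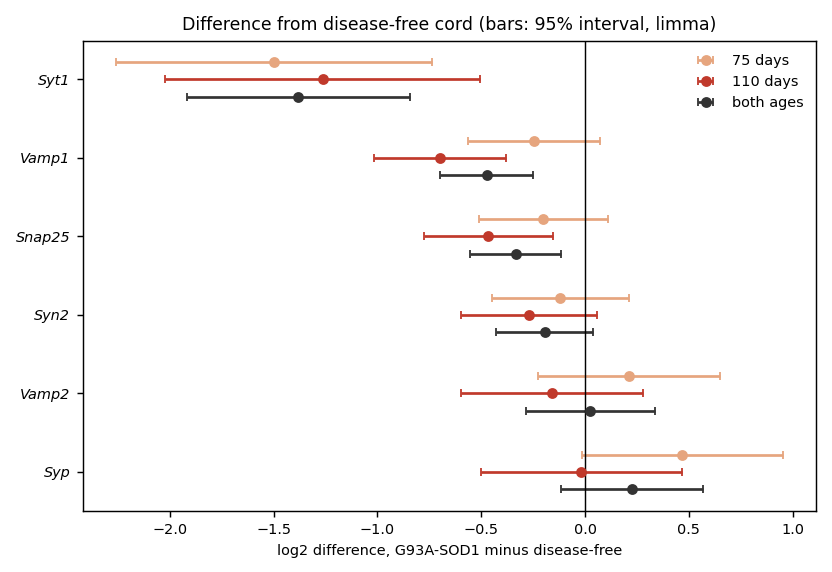
Log2 difference of G93A-SOD1 minus disease-free for each tested gene at 75 days, at 110 days and over both ages, with 95% intervals of the limma fit as bars. Over both ages Syt1 (-1.38) has an adjusted p below 0.05; the 75-day and 110-day values of all 6 genes, Vamp1 at 110 days (-0.70) included, do not.

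Across the 6 tested genes, 4 had both G93A-SOD1 arrays below all 4 disease-free arrays (Syt1, Vamp1, Snap25 and Syn2) and 0 had both above. Among all tested probe sets 15.6% had both arrays below and 6.25% both above. At 110 days 0 of the 6 passed by limma in either direction (3 had an unadjusted p under 0.05, Syt1, Vamp1 and Snap25, as did 693 of all 6737 probe sets, 378 of them lower), in a comparison where 1.51% of probe sets passed, 1.38% with a higher and 0.134% with a lower level. All 6 differences were below 0 at that age, as were 55.1% of all differences, and their median was -0.37 against -0.02 over all tested probe sets. At 75 days 0 of the 6 passed, as did 0% of all probe sets by limma. Unadjusted p was under 0.05 for 1 of the 6 (Syt1) and for 664 of all probe sets. At that age 4 of 6 differences were below 0, against 57.5% of all, and the median was -0.16 against -0.04. The members were named with earlier results of these arrays known, so these counts describe the genes and lend no support to a direction.

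Between the ages themselves no gene of the group passed. For the change of the G93A-SOD1 difference between 75 and 110 days, 0 of 6 passed where 0.416% of probe sets did, and the differences ran from -0.49 for Syp to 0.23 for Syt1. For disease-free cords at 110 minus 75 days, 0 of 6 passed where 0.0148% did. For G93A-SOD1 cords at 110 minus 75 days, 0 of 6 passed where 1.1% did, and Vamp1 had the lowest value (-0.51, and 0.03 by its other probe set). For WT-SOD1 minus nontransgenic cords, 0 of 6 passed, and Syt1 aside the differences lay between -0.08 and 0.08. Unadjusted p was under 0.05 for 1 gene in each of the change with age (Vamp1), the G93A-SOD1 age comparison (Vamp1) and the WT-SOD1 comparison (Syt1), and for 0 in the disease-free age comparison. Among all 6737 probe sets the counts were 420, 693, 79 and 209 in the same order.

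The promoters of Syt1, Vamp1 and Syn2 are shown because these genes had both G93A-SOD1 arrays below the disease-free range and had an entry among the promoter sequences used (RefSeq, build GRCm38.p6). Promoters of Snap25, Vamp2 and Syt4 were not analysed here. Each window runs from 250 bases before to 50 bases after a transcript start, 5′ to 3′ on the gene's strand, and capitals mark the CCAAT box (CCAAT, or ATTGG on the other strand) and the GC box (GGGCGG, or CCGCCC on the other strand). The window of Syt1 is chr10:109010926-109011225 on the minus strand, that of Vamp1 chr6:125215331-125215630 on the plus strand and that of Syn2 chr6:115134652-115134951 on the plus strand.
Syt1: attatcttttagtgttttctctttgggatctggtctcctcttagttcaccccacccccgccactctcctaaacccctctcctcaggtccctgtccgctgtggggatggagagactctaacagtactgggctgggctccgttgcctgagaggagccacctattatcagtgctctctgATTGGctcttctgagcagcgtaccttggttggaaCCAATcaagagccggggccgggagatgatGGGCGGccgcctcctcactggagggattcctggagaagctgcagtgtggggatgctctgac
Vamp1: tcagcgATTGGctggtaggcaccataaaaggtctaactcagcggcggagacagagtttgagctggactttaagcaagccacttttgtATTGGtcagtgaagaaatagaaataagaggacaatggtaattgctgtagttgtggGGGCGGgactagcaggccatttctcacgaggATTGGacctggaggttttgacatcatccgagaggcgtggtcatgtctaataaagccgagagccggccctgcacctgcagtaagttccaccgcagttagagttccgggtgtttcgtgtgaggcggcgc
Syn2: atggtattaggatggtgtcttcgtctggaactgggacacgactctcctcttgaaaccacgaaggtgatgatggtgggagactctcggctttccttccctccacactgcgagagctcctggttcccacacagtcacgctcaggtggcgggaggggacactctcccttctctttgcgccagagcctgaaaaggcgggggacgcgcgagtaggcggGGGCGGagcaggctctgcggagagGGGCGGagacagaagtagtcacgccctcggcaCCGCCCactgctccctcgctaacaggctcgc

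The 3 windows differ in these letters. Syt1 has 2 CCAAT boxes, 74 and 40 bases before the start, and 1 GC box 11 bases before it. Vamp1 has 3 CCAAT boxes, 244, 163 and 77 bases before the start, and 1 GC box. Syn2 has 0 CCAAT boxes and 3 GC boxes. Over the 32851 promoter windows of the same length, 37.4% hold a CCAAT box and 35.7% a GC box, on either strand. None of the 3 windows holds TATAAA (13.6% of all windows) or the cAMP response element TGACGTCA (1.79%). These matches are letters in a window, and no binding was measured.

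The other genes of the vesicle cycle were read from lists by role. Of 16 tested vesicle membrane proteins other than the 9 genes, 0 passed in any comparison. At 110 days 4 had an unadjusted p under 0.05, where 693 of 6737 probe sets did. In this list 5 had both G93A-SOD1 arrays below the disease-free range, as did 15.6% of all tested probe sets. The list's median log2 difference was -0.00 at 75 days and -0.11 at 110 days. Syngr1, a vesicle protein of the synaptophysin type, had an intensity of 287 at 75 days and 551 at 110 days in G93A-SOD1 cords, against 333 and 316 in WT-SOD1 cords and 394 and 304 in nontransgenic cords. The 110-day G93A-SOD1 array was the brightest of all, and the difference there was 0.83 ± 0.15 (adjusted p = 0.0572 by limma). Slc32a1, which loads inhibitory transmitters into vesicles, was lower on both G93A-SOD1 arrays, with 1224 and 1109.6 at 75 and 110 days, against 1424 and 1406 in WT-SOD1 cords and 1503 and 1662 in nontransgenic cords. Its difference at 110 days was -0.46 (adjusted p = 0.318).

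Other synaptotagmins differed from Syt1 in the size of their values. Syt2, the fast calcium sensor of hindbrain and spinal cord synapses, had an intensity of 1439 at 75 days and 1405 at 110 days in G93A-SOD1 cords, against 1782 and 1482 in WT-SOD1 cords and 1724 and 2143 in nontransgenic cords. Syt11 had 653 and 544 in G93A-SOD1 cords, against 783 and 688 in WT-SOD1 cords and 796 and 683 in nontransgenic cords. Both genes lay below the disease-free range on both G93A-SOD1 arrays without passing. Syt3 and Syt5 overlapped between the groups.

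Of 19 tested SNAREs other than the listed genes, 0 passed in any comparison. At 110 days 1 had an unadjusted p under 0.05, against 693 of all 6737. On both G93A-SOD1 arrays 3 lay below and 1 above the disease-free range, against 15.6% and 6.25% of all tested probe sets. Vamp4, a SNARE of endosomes, had an intensity of 227 at 75 days and 274 at 110 days in G93A-SOD1 cords, against 300.3 and 316 in WT-SOD1 cords and 342 and 439 in nontransgenic cords (difference at 110 days -0.44, adjusted p = 0.556 by limma). Sec22b, a SNARE between endoplasmic reticulum and Golgi, had a difference of -0.43 at 110 days (adjusted p = 0.504). The median of the list was -0.07 at 75 days and -0.04 at 110 days.

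Of 21 tested regulators of fusion and the active zone, 0 passed in any comparison. At 110 days 3 had an unadjusted p under 0.05, against 693 of all 6737. On both G93A-SOD1 arrays 5 lay below and 1 above the disease-free range, against 15.6% and 6.25% of all tested probe sets. The complexins, which clamp and then assist the assembled SNARE complex, had the largest differences at 110 days. Cplx1 had an intensity of 1788 at 75 days and 1276 at 110 days in G93A-SOD1 cords, against 1992 and 1839 in WT-SOD1 cords and 1999 and 1743 in nontransgenic cords (difference at 110 days -0.49, adjusted p = 0.202 by limma). Cplx2 had -0.41 at that age (adjusted p = 0.611). Nsf, the ATPase that takes spent SNARE complexes apart, had 1112 and 1020.2 in G93A-SOD1 cords, against 1345 and 1209.5 in WT-SOD1 cords and 1346 and 1348 in nontransgenic cords. The median of the list was -0.08 at 75 days and -0.09 at 110 days.

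Of 23 tested genes of vesicle endocytosis, 0 passed in any comparison. At 110 days 2 had an unadjusted p under 0.05, against 693 of all 6737. On both G93A-SOD1 arrays 4 lay below and 1 above the disease-free range, against 15.6% and 6.25% of all tested probe sets. Sh3gl2, which encodes endophilin A1, had a difference of -0.60 at 110 days (adjusted p = 0.170 by limma), and Snap91, a clathrin adaptor of nerve terminals, had -0.58 (adjusted p = 0.347). Snap91 had an intensity of 283 and 263 at 75 and 110 days in G93A-SOD1 cords, against 355 and 335 in WT-SOD1 cords and 336 and 461 in nontransgenic cords. The list's median was -0.11 at 75 days and -0.09 at 110 days. Nsf, Syt2 and Syt11 were chosen for mention after their values were seen.

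**Figure D3:**
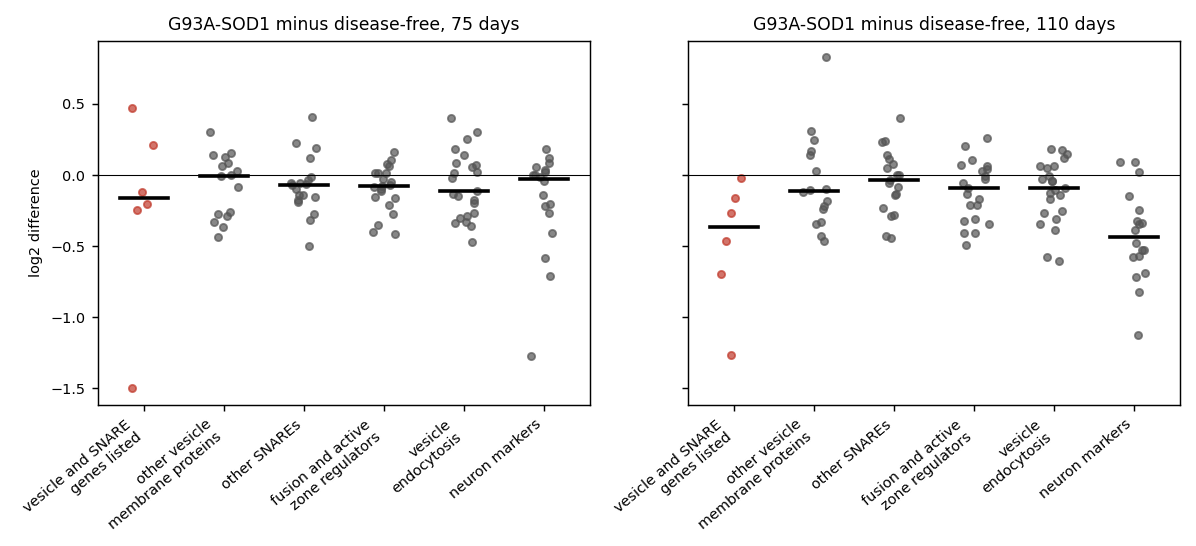
Log2 difference of G93A-SOD1 minus disease-free at 75 and 110 days for the tested genes of each vesicle cycle list and for neuron markers. Each point is 1 gene and the bar is the list's median. The medians of the 6 tested vesicle and SNARE genes (-0.16 and -0.37) stand beside those of the other 4 vesicle cycle lists, which lie between -0.11 and -0.00, and of neuron markers (-0.03 and -0.43).

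Levels of cell type markers moved beside these genes. In a whole cord, fewer cells of a type and less RNA per cell cannot be told apart. General neuron markers summed to 13813 at 75 days and 11853 at 110 days in G93A-SOD1 cords, against 14830 and 14729.8 in WT-SOD1 cords and 14252 and 17389 in nontransgenic cords. Of 18 tested neuron markers, 1 fell at 110 days (Nefm, a neurofilament subunit, by 0.82 on the log2 scale, adjusted p = 0.0301 by limma). In that comparison 0.134% of all probe sets passed with a lower level. Over both ages 1 fell (Map2, a dendritic microtubule protein, by 0.98, adjusted p = 0.0384), where 0.237% of all passed with a lower level. The median of the 18 at 110 days was -0.43, against -0.37 for the vesicle and SNARE genes. On both G93A-SOD1 arrays 6 of 18 lay below the disease-free range, as did 15.6% of all tested probe sets. The 8 vesicle and SNARE genes summed to 5716 and 4924 in G93A-SOD1 cords, against 6234 and 6623 in WT-SOD1 cords and 6284 and 6832 in nontransgenic cords.

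Map2 had an array pattern close to that of Syt1, with an intensity of 78.5 at 75 days and 105 at 110 days in G93A-SOD1 cords, against 157 and 173 in WT-SOD1 cords and 229 and 167 in nontransgenic cords. Of 4 tested motor neuron markers 0 passed in any G93A-SOD1 comparison (0 also with an unadjusted p under 0.05), and their sums were 1162 and 979.6 in G93A-SOD1 cords, against 1282 and 1068 in WT-SOD1 cords and 1125 and 1271 in nontransgenic cords. Microglia markers summed to 2476 and 9507 in G93A-SOD1 cords, against 2307 and 2708.5 in WT-SOD1 cords and 2169 and 2541 in nontransgenic cords. Of 12 tested, 11 rose at 110 days, where 1.38% of all probe sets passed with a higher level. Aif1 and Lyz2, 2 of those 11, exceeded the filter level only on the 110-day G93A-SOD1 array (95.5 and 290). They entered the test through the group where they were higher, so their calls depend on the filter. Astrocyte markers summed to 9814 and 13433 in G93A-SOD1 cords, against 8966 and 10195.5 in WT-SOD1 cords and 9177 and 9938 in nontransgenic cords. Of 8 tested, 2 rose at 110 days and over both ages. Over all probe sets 1.38% passed with a higher level at 110 days, and 1.2% in either direction over both ages. The 2 were Gfap, the intermediate filament of reactive astrocytes (by 1.25 on the log2 scale at 110 days, adjusted p = 0.0304 by limma), and Fabp7, a fatty acid binding protein (by 1.46, adjusted p = 0.0166). The list was not uniform. At 110 days 5 of the 8 differences were above 0 and 3 below, namely S100b (-0.23), Aldoc (-0.19) and Gja1 (-0.03). Over all tested probe sets 55.1% were below 0.

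Markers of cerebellar neurons, cells that a spinal cord sample should lack, had a lower sum on both G93A-SOD1 arrays as well. Their sum was 1591 at 75 days and 1598 at 110 days in G93A-SOD1 cords, against 1997 and 4119 in WT-SOD1 cords and 3582 and 2451 in nontransgenic cords. Of 9 tested, 0 passed, and 4 had an unadjusted p under 0.05 at 110 days, against 693 of all 6737. On both G93A-SOD1 arrays 6 lay below the disease-free range, as did 15.6% of all tested probe sets. Zic2, Neurod2 and En2 overlapped between the groups. The medians were -0.57 at 75 days and -1.08 at 110 days. Gabra6 and Car8 exceeded the filter level only on disease-free arrays, so they entered the count and the medians through the group where they were higher. The cell source of these transcripts was not tested. The sums were largest on the nontransgenic array at 75 days and the WT-SOD1 array at 110 days, the same arrays that had the higher spike-in levels. Syt1 was 232 and 138 on that pair, and 225 and 156 on the remaining disease-free pair. The part of neuronal, cerebellar and glial RNA in the Syt1, Vamp1, Snap25 and Syn2 differences was not tested.

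**Figure D4:**
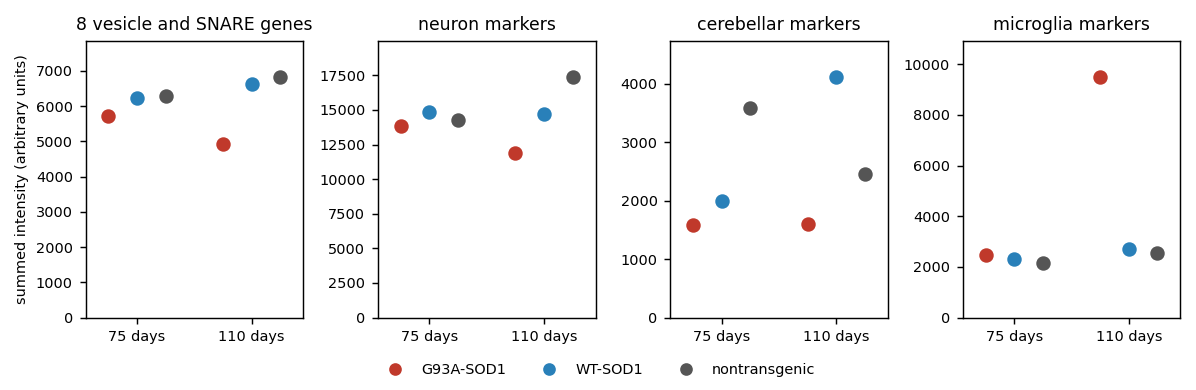
Summed intensity on each array of the 8 measured vesicle and SNARE genes and of neuron, cerebellar and microglia markers, with G93A-SOD1 left of WT-SOD1 and nontransgenic at each age. The vesicle and SNARE sum is lowest on the 2 G93A-SOD1 arrays (5716 and 4924). The neuron sum (13813 and 11853) and the cerebellar sum (1591 and 1598) are also lowest there. The microglia sum is highest on the 110-day G93A-SOD1 array (9507).

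Among 1109 genes whose log2 values varied over the 6 arrays with an SD of at least 0.2, those closest to Syt1 in pattern were Usp22, a histone deubiquitinase (Pearson r = 0.986 over 6 arrays), Ppm1b, a protein phosphatase (0.98), Mapk9, the stress kinase JNK2 (0.979), Cds2, an enzyme of phospholipid synthesis (0.977), and Sult4a1, a brain sulfotransferase (0.977). Sult4a1 had an intensity of 455 at 75 days and 462 at 110 days in G93A-SOD1 cords, against 667 and 638 in WT-SOD1 cords and 761 and 685 in nontransgenic cords. Closest to the mean of the 6 tested vesicle and SNARE genes were Myorg and Itih3 (0.98 each), Slc32a1 (0.978), Idi1 (0.977) and Ptch1 (0.976). These values rank genes over 6 arrays of 6 conditions that share their array-wide levels, and they are a description.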

How the data were processed

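Spinal cord RNA was hybridised to 6 Affymetrix MG-U74Av2 arrays. Total RNA of 4 cords was extracted with Trizol and poly(A) RNA isolated, per the labels' protocols. Each deposited value is a linear intensity of 1 probe set. The authors' probe summary and scaling are not given in the sources used here. Of 12488 rows, 66 control probe sets were left out. Lower intensities were set to a floor of 31 (the 25th percentile), and log2 of each deposited intensity followed, so values at the floor have no order and fold changes of dim genes are understated. A probe set was tested where at least 1 array exceeded 79.7, the pooled median, which kept 6737 of 12422.

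Gene names came from the platform annotation: 10833 probe sets had 1 symbol, 396 several and 1193 none. Of those with 1 symbol, 10817 matched a RefSeq gene table and 0 symbols changed. Tests used limma 3.58.1 (R 4.3.3; linear fit with empirical Bayes moderation, two-sided, Benjamini-Hochberg over all tested probe sets, threshold 0.05). The fit had 4 means, disease-free and G93A-SOD1 at each age, with 2 residual degrees of freedom (prior 5.13). WT-SOD1 minus nontransgenic came from the 4 disease-free arrays in a model of genotype plus age. It had 1 residual degree of freedom, so 1 pooled spread served every probe set. The fits were run on simulated arrays. For the G93A-SOD1 comparisons these held no difference between the disease-free genotypes. They thus cannot show whether the 2 genotypes serve as replicates. The number of arrays limits the precision.

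The genes and lists were chosen with earlier results of these data known. Named were all 9 genes, from each list up to 3 genes that passed or else the 2 largest differences at 110 days, and the 5 genes closest in pattern to Syt1 and to the mean. Promoter windows came from RefSeq (GRCm38.p6), for 6 of the 9 genes. Alternatives covered the filter, the floor, scaling, the spike-in levels, the choice of disease-free arrays, leaving out single arrays and the other probe sets.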

Additional observations from a re-analysis of the deposited data

How the results depend on the processing

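Of 488 alternative values of the genes' 42 differences, 436 kept their direction and their side of the threshold. Syt1 over both ages kept its sign in 16 of 16 alternatives and passed in 9. It missed with no filter (-1.38, adjusted p = 0.432 by limma), a floor at the 40th percentile (-1.38, 0.136), arrays scaled to 1 median (-1.37, 0.116), the 4 arrays with lower spike-in levels (-1.42, 0.113) and WT-SOD1 arrays alone (-1.06, 0.963), each of which left 0 of the 6 genes passing. A term for spike-in levels gave 2 passing genes over both ages. Leaving out single arrays gave 0 to 3, with Syt1 between -1.56 and -1.20. Without a G93A-SOD1 array the value was the difference at the other age. At 110 days 1 gene passed with an offset and 1 with the spike-in term, and 1 to 2 with a disease-free array left out. At 75 days 1 passed with any disease-free array left out. Probe sets passing over both ages ranged from 0 to 1071, the highest without the WT-SOD1 array at 110 days, against 81. They ranged from 13 to 116 at 75 days and from 148 to 591 at 110 days with a disease-free array left out, against 0 and 102.

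Signs turned in differences that passed in no setting, and the cause was not tested. With quantile normalization Syp was 0.022 at 110 days and -0.015 for disease-free age, and Vamp1 and Snap25 were 0.018 and 0.040 for WT-SOD1 minus nontransgenic. Vamp2 over both ages was -0.12 with the spike-in term and with the 4 lower arrays. Syn2 for disease-free age was 0.0010 with scaled arrays. The other Vamp2 probe set gave 0.16 at 110 days, 0.013 for the change (-0.37 by the brighter set) and -0.24 for disease-free age. The other Vamp1 set gave 0.21 for the change and 0.028 for G93A-SOD1 age, against -0.45 and -0.51 by the brighter set. With single arrays left out, Syp at 110 days ranged from -0.15 to 0.11. Over both ages Syp ranged from -0.018 to 0.47 and Vamp2 from -0.16 to 0.21. The ends of these 2 ranges are single-age differences, which remain without a G93A-SOD1 array. With single arrays left out, the Syt1 change ranged from -0.12 to 0.59. Disease-free age ranged from -0.47 to 0.24 for Syt1, -0.092 to 0.25 for Vamp2, -0.21 to 0.21 for Syp and -0.10 to 0.060 for Syn2. No paired analysis was possible because each group has 1 array and the labels carry no replicate numbers. Stx1a (59.1 to 77.5) and Syt4 (39.0 to 66.4) lay between the floor and the filter level on all 6 arrays, which limits what can be seen for them.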

Other observations

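Genes of the vesicle cycle outside the naming rule were looked at after their values were seen. Dnm1, the dynamin that pinches vesicles off the membrane, had an intensity of 2748 at 75 days and 2594 at 110 days in G93A-SOD1 cords, against 3587 and 2922 in WT-SOD1 cords and 3462 and 3948 in nontransgenic cords. Dnajc5, the cysteine string protein that chaperones SNAP-25, had 167 and 149.99 in G93A-SOD1 cords, against 203 and 211 in WT-SOD1 cords and 251 and 194 in nontransgenic cords. Slc18a3, which loads acetylcholine into vesicles of motor neurons, overlapped between the groups, with 209.8 and 160.2 in G93A-SOD1 cords, against 207 and 171 in WT-SOD1 cords and 190.1 and 193 in nontransgenic cords. None of the 3 passed by limma in any comparison.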
